A study of Mus musculus with 8 samples.

Results

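The 9 genes described here set how strongly cells phosphorylate the translation factor eIF2alpha, and they were taken by name for their roles in this system, with earlier results of these data known. They were the eIF2alpha kinases Eif2ak1, Eif2ak2, Eif2ak3 and Eif2ak4, the mitochondrial relay genes Oma1 and Dele1, the kinase substrate Eif2s1, and the phosphatase subunits Ppp1r15a and Ppp1r15b. All 9 of 9 were found among the 55471 genes of the count tables, and all 9 were abundant enough to be tested. RNA was sequenced from a small piece of heart of 4 wild-type (WT) and 4 TAZG197V mice aged 14 weeks. TAZG197V mice carry a CRISPR/Cas9 knock-in point mutation, known from patients with Barth syndrome, in the X-linked gene for Tafazzin, the enzyme that remodels the mitochondrial lipid cardiolipin. The edit was made in C57BL/6N zygotes and founders were crossed to C57BL6/J, the study used hemizygous males that carry the mutation in every tissue, and no mouse was treated. The study compared the genotypes to learn how heart transcripts change when cardiolipin remodelling is lost, and the question here is where along the eIF2alpha kinase and phosphatase system transcripts differed.

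When a cell is stressed, any of the 4 kinases can phosphorylate eIF2alpha on a single serine. Phosphorylated eIF2 blocks its own nucleotide exchange factor, eIF2B, so general translation falls while a few messages, among them that of the transcription factor ATF4, are translated more. The kinases answer to different signals: HRI (Eif2ak1) to haem shortage in red cell precursors and to mitochondrial stress, PKR (Eif2ak2) to double-stranded RNA, PERK (Eif2ak3) to unfolded proteins in the endoplasmic reticulum, and GCN2 (Eif2ak4) to uncharged tRNA and stalled ribosomes. Mitochondrial stress reaches HRI through the inner membrane protease OMA1, which cleaves DELE1, and the cleaved protein gathers in the cytosol and binds HRI. Protein phosphatase 1 removes the phosphate when it is guided by GADD34 (Ppp1r15a), the stress-inducible subunit, or by CReP (Ppp1r15b), the constitutive one.

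Promoter sequence is shown for the members on which the results turn, the phosphatase subunit with the greatest difference and the one kinase that was called, to set them beside the response elements that act in this system. RefSeq promoters (build GRCm38.p6, 250 bases before to 50 bases after the start) were given for 7 members, of which Eif2ak4 had 2, and none was used for Ppp1r15b or Dele1. Bases -250 to -11 before the start are printed 5′ to 3′ in the direction of the gene, for Ppp1r15a from chr7:45526279-45526518 on the minus strand and for Eif2ak1 from chr5:143817542-143817781 on the plus strand. Capitals mark a match to the core of the interferon-stimulated response element, GAAANNGAA, in Ppp1r15a and a CCAAT box in Eif2ak1.
Ppp1r15a: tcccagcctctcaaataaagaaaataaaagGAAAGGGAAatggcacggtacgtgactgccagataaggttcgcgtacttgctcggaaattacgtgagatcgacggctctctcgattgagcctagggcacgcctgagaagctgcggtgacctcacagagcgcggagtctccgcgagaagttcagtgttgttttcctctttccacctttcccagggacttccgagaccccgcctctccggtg
Eif2ak1: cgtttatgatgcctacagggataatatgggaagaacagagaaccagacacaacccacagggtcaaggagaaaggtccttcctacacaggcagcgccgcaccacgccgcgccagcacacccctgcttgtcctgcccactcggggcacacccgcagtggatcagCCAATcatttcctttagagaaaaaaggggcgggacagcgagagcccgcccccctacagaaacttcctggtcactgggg

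The core of the amino acid response element to which ATF4 binds, TGATGNAA, was searched on both strands and occurred in none of the 8 member promoters. Of all 32851 promoters of the same length, 3.97% held it, as did 2.32% of the 14199 promoters of genes tested. The endoplasmic reticulum stress element, CCAAT followed by 9 bases and CCACG, was also found in none of the 8, and 0.119% of all promoters held it, whereas CCAAT alone stood in 37.4%. Among the members, CCAAT occurred 6 times in Eif2ak3, a kinase that was not called, and 1 time in Eif2ak1. The interferon element core occurred in 8.56% of all promoters, in 7.23% of those of genes tested, and in those of Ppp1r15a, Eif2ak2 and Eif2s1. Eif2ak2 held 2 overlapping copies just after its start, shown in capitals for bases 14 to 38 (chr17:78882535-78882559, minus strand), and Eif2s1 held 1 copy, shown for bases -220 to -196 (chr12:78861852-78861876, plus strand).
Eif2ak2: gccggGAAAACGAAACAGAAgagaa
Eif2s1: tggagcaaGAAACAGAAacttacct
These matches describe letters in a short window, and enhancers and introns were not searched. Only the motifs named here were looked for. Other sequences to which ATF4 can bind were not searched, so a member without TGATGNAA may still hold such a site.

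Total counts per library ranged from 23055689 to 36301031, and the mean counts of the members ranged from 317.5 for Eif2ak4 to 4128 for Dele1. Levels are counts scaled by TMM and library size (CPM), differences are fitted log2 fold changes of TAZG197V over WT, and adjusted p-values come from the quasi-likelihood F-test of edgeR after Benjamini-Hochberg adjustment across the 15084 genes that were tested. Calls required an adjusted p under 0.05, a difference of more than 15% (that factor up or down) and a mean count of at least 50. The edited gene, Taz, was lower in all TAZG197V libraries (44.3 to 50.4 CPM) than in all WT libraries (58.7 to 63.8 CPM), with a log2 fold change of -0.37 (adjusted p = 0.00124). The libraries were not alike in tissue content. Red cell markers summed to 55070 CPM in WT 4 against 346 to 1065 CPM in the other WT and 227 to 571 CPM in the TAZG197V libraries. Brain markers summed to 86.6 CPM in WT 4 and 189 CPM in TAZG197V 4 but to 6.15 to 9.87 CPM elsewhere. They did not move together. In TAZG197V 4, Slc1a2 was at 79.0 CPM and Nnat at 73.2 CPM, but Mbp was at 3.19 CPM. Of the 4 tested, Slc1a2 was called higher (0.68) and in 10 of 17 alternative fits, with a range of 0.24 to 1.94. Mbp was called lower (-1.21) and in 17 of 17. Adipocyte markers summed to 17.4 CPM in WT 2, to 0.194 to 2.81 CPM in the other WT libraries and to 0.0968 to 3.04 CPM in TAZG197V, and Cfd, the 1 of 4 that was tested, was called lower (-1.48) here and in 5 of the 16 alternative fits that tested it, and ranged from -4.12 with no low-count filter to -0.087 without WT 1, with -0.65 without WT 2 and -3.25 without TAZG197V 4. Cardiomyocyte markers were abundant in all 8 libraries, at a sum of 45490 to 60980 CPM, and 3 of 6 (Tnnt2, Ryr2 and Tnni3) were called lower in TAZG197V. Of the markers of other heart cells, 3 of 5 for fibroblasts (Dcn, Pdgfra and Tcf21), 2 of 4 for endothelial cells (Cdh5 and Kdr) and 2 of 3 for smooth muscle and pericytes (Myh11 and Rgs5) were called lower, while of those for macrophages 0 of 5 were called by edgeR (1, C1qa, at an unadjusted p under 0.05) and 0 by DESeq2. With single libraries left out, the counts called lower ranged from 1 (without TAZG197V 4) to 4 (without WT 4) for cardiomyocytes, being 2 without WT 1, WT 3, TAZG197V 1 or TAZG197V 2. The range for endothelial cells was 0 (without WT 3 or TAZG197V 2) to 4 (without TAZG197V 4), with 1 without TAZG197V 1 and 3 without WT 4 or TAZG197V 3. For fibroblasts it was 1 (without TAZG197V 2) to 4 (without TAZG197V 3), with 2 without TAZG197V 1, and for smooth muscle and pericytes 1 (without TAZG197V 1 or TAZG197V 2) to 3 (without WT 4).

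TAZG197V hearts had more Ppp1r15a, Eif2s1, Ppp1r15b and Eif2ak1 transcript and less Dele1 and Oma1 transcript than WT hearts, and Eif2ak2, Eif2ak3 and Eif2ak4 were not called. Thus 6 of 9 members were called, 4 higher and 2 lower. Over all genes tested, 33.5% were called, 18.5% higher and 15.1% lower, so calls were common among genes at large. In 7 of 9 members the 4 values of one genotype lay wholly above those of the other, which was the case in 33.2% of all genes tested. The median log2 fold change of all genes was -0.0132. The tissue was sequenced in bulk, so fewer cells of a type and less RNA per cell cannot be told apart.

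**Figure D1:**
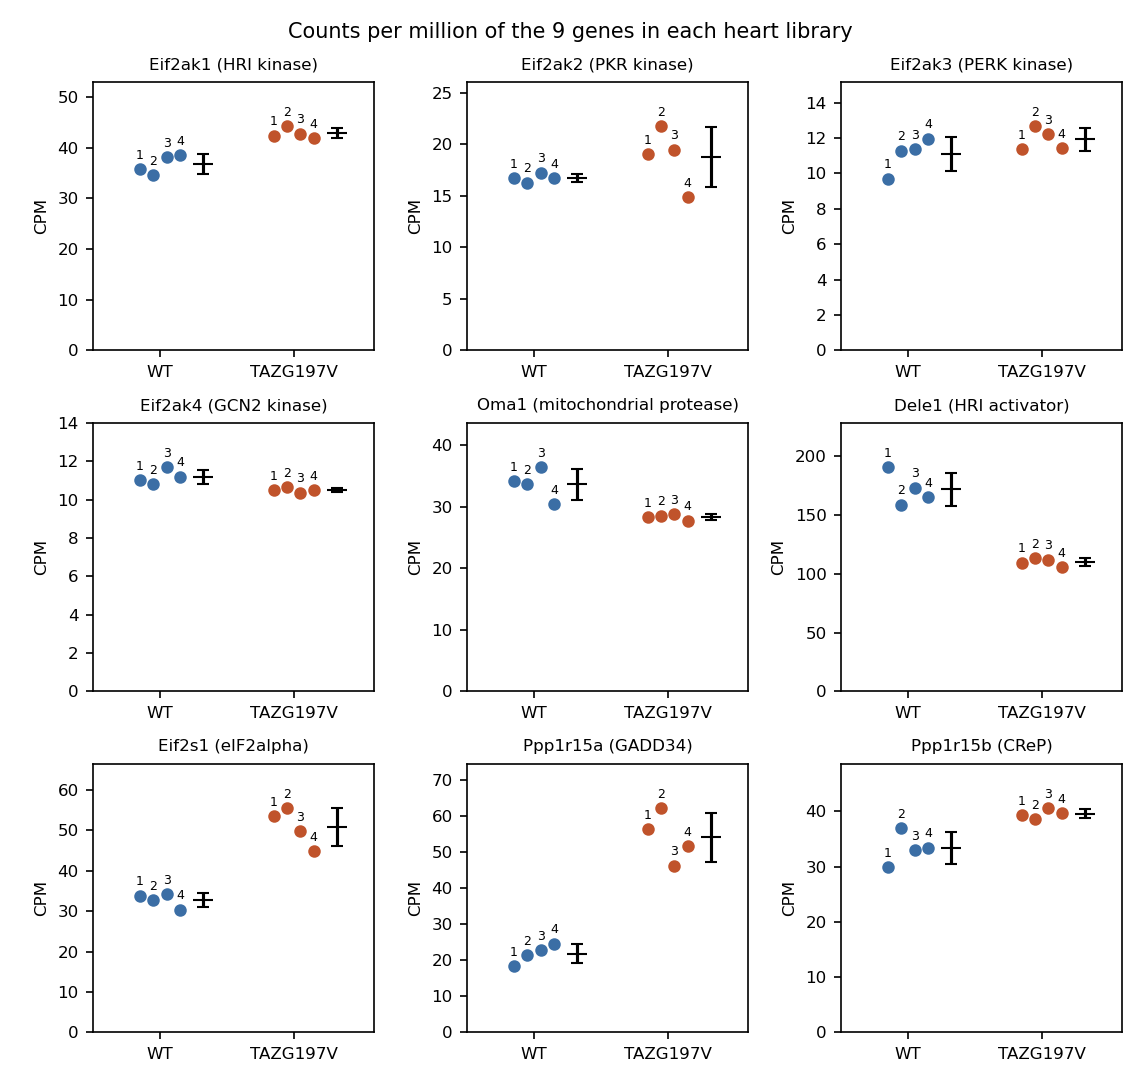
Level in CPM (y axes, from 0) of the 9 genes in each library, with WT points in blue, TAZG197V points in orange, the mouse number above each point, and the mean and SD of the 4 libraries in black. Ppp1r15a, Eif2s1 and Dele1 separate widely, Eif2ak1, Eif2ak4, Oma1 and Ppp1r15b separate narrowly, and Eif2ak2 and Eif2ak3 overlap.

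Ppp1r15a, the stress-inducible subunit GADD34, showed the greatest difference of the 9 genes. Its level was 18.4, 21.5, 22.8 and 24.6 CPM in WT 1 to 4 and 56.5, 62.2, 46.2 and 51.8 CPM in TAZG197V 1 to 4. Every TAZG197V value was well above every WT value, with means of 21.8 ± 2.63 and 54.2 ± 6.81 CPM (SD, n = 4 each). The fitted fold change was 2.46, a log2 fold change of 1.30 (SE 0.12, adjusted p = 0.000131). Leaving out single libraries moved it between 1.20 and 1.38 and never ended the call. The gene lies on the minus strand (chr7:45522916-45526268), and 0.409% of its exon bases are shared with Tulp2.

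Ppp1r15a can also rise within minutes of stimulation, as immediate early genes do, so 10 of those genes were read beside it. In edgeR 0 were called and 0 had an unadjusted p under 0.05, DESeq2 called 0, and the median log2 fold change was 1.06. Their summed level was 186 to 309 CPM in WT, 631 CPM in TAZG197V 1, 824 CPM in TAZG197V 2, 140 CPM in TAZG197V 3 and 233 CPM in TAZG197V 4. The pair of TAZG197V libraries with the highest sums were also the pair with the most Ppp1r15a. That pair was sequenced on lane 7, and TAZG197V 3 and 4 on lane 8, so lane and mouse cannot be told apart here. In TAZG197V 3 and 4 the sum was under or within the WT range, and Ppp1r15a was 46.2 and 51.8 CPM, above every WT library. The count of immediate early genes called changed with the fit: it was 6 with no low-count filter on the 8 libraries, 7 without TAZG197V 3, 3 without TAZG197V 4 or both number 4 libraries, and 2 without WT 4. The part of an immediate early response in the Ppp1r15a difference was not tested.

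Ppp1r15b, the constitutive subunit CReP, differed far less. It stood at 29.9, 37.0, 32.9 and 33.4 CPM in WT 1 to 4 and at 39.4, 38.6, 40.6 and 39.7 CPM in TAZG197V 1 to 4. All mutant values were higher than all WT values, though WT 2 came close. The log2 fold change was 0.27 (SE 0.0678, adjusted p = 0.0154) and stayed between 0.24 and 0.30 when single libraries were left out. Per exon length, the ratio of Ppp1r15a to Ppp1r15b had a mean of 1.25 (SD 0.136) over the WT mice and of 2.62 (SD 0.381) over the mutant mice, with no overlap (exact permutation test over the 8 libraries, two-sided p = 0.0286). This is the smallest p that 4 libraries against 4 allow, and it became 0.05 after adjustment over the 7 ratios and shares compared in this way, a set chosen after the values were seen. Of the exon bases of Ppp1r15b, 11.4% are shared with Gm26616, which limits its value because the strand setting of the counting was not given in the sources used here.

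Of the catalytic subunits of protein phosphatase 1 that these regulators guide, Ppp1ca was higher, with 151 to 168 CPM in WT against 195 to 210 CPM in TAZG197V and a log2 fold change of 0.34 (adjusted p = 0.00120). It was called in 17 of 17 alternative fits. Ppp1cb was at 0.055 and Ppp1cc at 0.13 on the log2 scale, and neither passed the test (adjusted p = 0.516 and 0.508). Of the exon bases of Ppp1ca, 16.5% are shared with other genes, as are 17.5% of those of Ppp1cb, and 40% of the 50-base windows of Ppp1cc also occur in other transcripts, so their counts are uncertain.

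Eif2s1, which encodes eIF2alpha itself, was higher in TAZG197V hearts. Its level was 33.8, 32.7, 34.1 and 30.3 CPM in WT 1 to 4 and 53.5, 55.4, 49.8 and 44.8 CPM in TAZG197V 1 to 4. The lowest mutant library, TAZG197V 4, was above the highest WT library. The log2 fold change was 0.63 (SE 0.0587, adjusted p = 0.000132), a fold change of 1.55, with 0.61 to 0.68 when single libraries were left out. The gene lies at chr12:78861819-78887010, and 5.76% of its 50-base windows recur in transcripts of pseudogenes such as Gm12734. Relative to the summed level of the 4 kinases per exon length, Eif2s1 stood at 0.506 ± 0.0384 in WT and 0.703 ± 0.0361 in TAZG197V, with no overlap (exact permutation p = 0.0286, adjusted p = 0.05).

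The other eIF2 subunits and eIF2B were also mostly higher. Of these 8 genes, 7 were called higher and 0 lower, with a median log2 fold change of 0.36. Eif2s2, the beta subunit of eIF2, rose the most, from 27.8 to 35.6 CPM in WT to 79.8 to 88.8 CPM in TAZG197V (log2 fold change 1.39, adjusted p = 6.33e-06). Eif2b3, the gamma subunit of the exchange factor, followed at 0.86 (adjusted p = 0.000134), then Eif2b2, its beta subunit, at 0.41 (adjusted p = 0.00512). Eif2s3x, the X-linked gamma subunit of eIF2, was at 0.41 (adjusted p = 0.0268), with 34.6% of its windows found elsewhere. Eif2s3y, its Y-linked copy, was the gene not called, at -0.17 (adjusted p = 0.610) and with values of 32.5 to 76.8 CPM in TAZG197V that spanned those of WT. Eif2s2, Eif2b2 and Eif2b3 were called in 17 of 17 alternative fits, whereas the count of 7 fell to 3 without TAZG197V 1.

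Dele1, the relay protein that binds HRI, was the member that fell the most. It was counted at 190, 159, 173 and 165 CPM in WT 1 to 4 and at 109, 113, 112 and 105.5 CPM in TAZG197V 1 to 4. The lowest WT library lay far above the highest mutant one, and the mutant libraries were close together. The log2 fold change was -0.65 (SE 0.0625, adjusted p = 0.000151), a ratio of TAZG197V to WT of 0.636, and it stayed between -0.67 and -0.61 when single libraries were left out. Dele1 lies at chr18:38250255-38265461, with 1.96% of its exon bases shared with 1700086O06Rik.

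Oma1, the protease that cleaves DELE1, was also lower, by less. Its level was 34.1, 33.7, 36.4 and 30.4 CPM in WT 1 to 4 and 28.3, 28.5, 28.7 and 27.7 CPM in TAZG197V 1 to 4. The mutant values were nearly the same in all 4 mice and lay just under the lowest WT value, that of WT 4. The log2 fold change was -0.24 (SE 0.0622, adjusted p = 0.0162). The call was close to the limits: it was lost without WT 3 (-0.20, adjusted p = 0.0435, short of the fold required), without TAZG197V 1 (-0.24, adjusted p = 0.0519) and without TAZG197V 2 (-0.23, adjusted p = 0.0593). The ratio of Dele1 to Oma1 per exon length was 1.49 ± 0.131 in WT and 1.13 ± 0.0194 in TAZG197V, with no overlap (exact permutation p = 0.0286, adjusted p = 0.05).

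Transcripts for proteins that work beside OMA1 and DELE1 in mitochondria moved in both directions. Of 9 such genes, 5 were called higher, 2 lower and 2 not at all, with a median log2 fold change of 0.21. Lonp1, the protease that degrades matrix proteins, rose from 156 to 194 CPM in WT to 605 to 775 CPM in TAZG197V (log2 fold change 1.99, adjusted p = 2.15e-06). Afg3l2, a subunit of the inner membrane m-AAA protease, rose by 0.48 on the log2 scale (adjusted p = 0.000533), while Spg7, its partner subunit, fell by 0.24 (adjusted p = 0.0141). Pgam5, a mitochondrial phosphatase, was at 0.51 (adjusted p = 0.000435), though 58.1% of its exon bases are shared with Gm26718. The prohibitins Phb2 and Phb, which form ring-shaped scaffolds, were at 0.27 and 0.21 (adjusted p = 0.00838 and 0.0253), with 30.3% of the 50-base windows of Phb found elsewhere. Opa1, the inner membrane fusion protein that OMA1 cleaves, fell by 0.27 (adjusted p = 0.00683). Yme1l1, the other protease that cleaves OPA1, and Stoml2, a scaffold protein, were at 0.080 and 0.14 and were not called (adjusted p = 0.246 and 0.0708). Lonp1, Afg3l2, Pgam5, Phb2 and Opa1 were called in 17 of 17 alternative fits, Spg7 in 15 and Phb in 10.

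**Figure D2:**
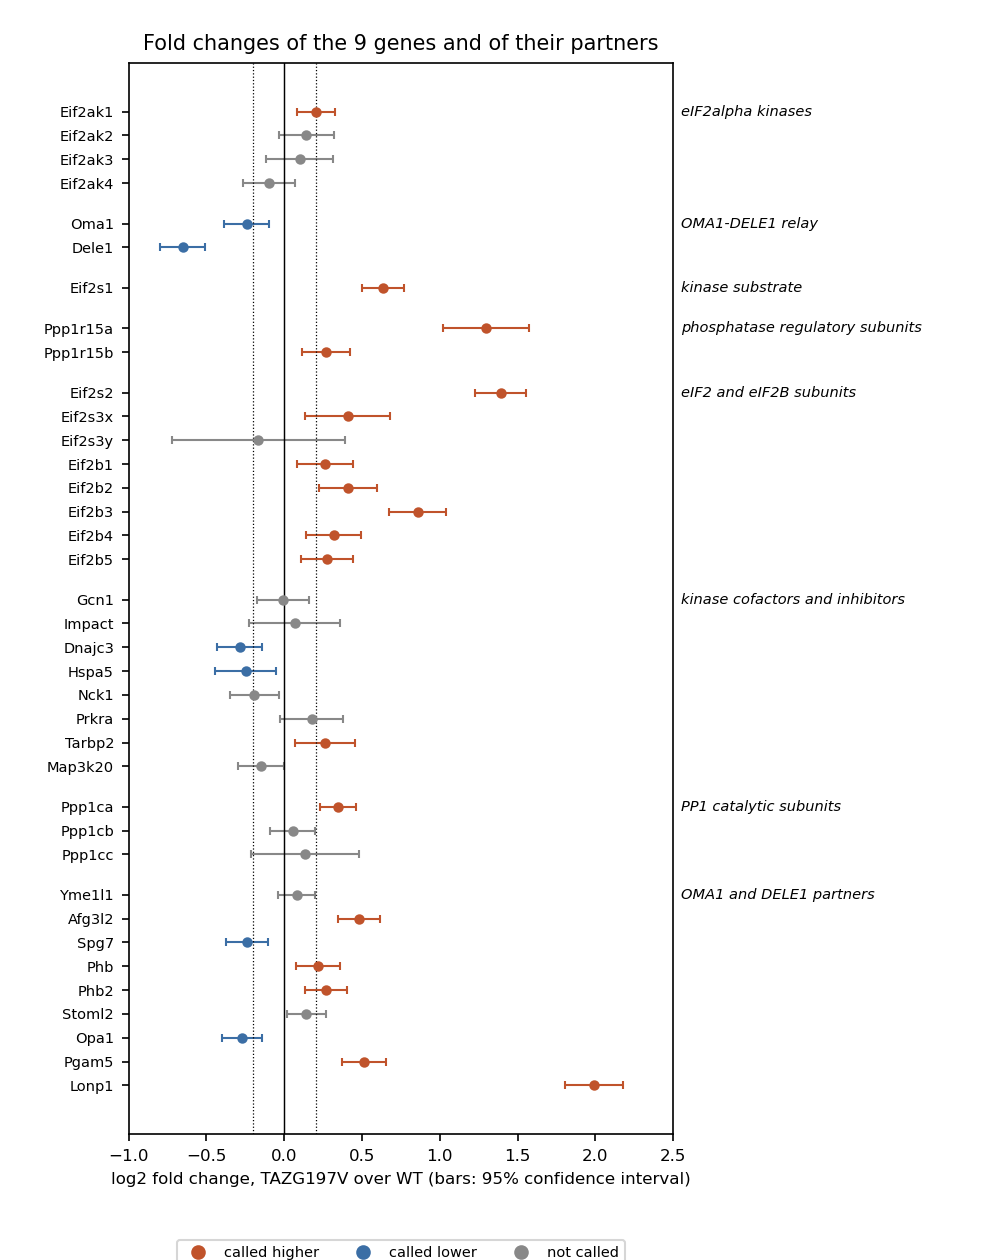
Fitted log2 fold change of TAZG197V over WT (x axis) with its 95% confidence interval for the 9 genes and for 28 partner genes in 4 lists (y axis), coloured by call, with dotted lines at a change of 15% in either direction. Ppp1r15a, Eif2s2 and Lonp1 lie above 1, Dele1 is lowest, and most kinase cofactors lie near 0.

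Eif2ak1 was the kinase with the most transcript and the one that was called. Its level was 35.8, 34.5, 38.2 and 38.6 CPM in WT 1 to 4 and 42.4, 44.2, 42.8 and 41.9 CPM in TAZG197V 1 to 4. The 4 mutant values lay above all WT values. The log2 fold change was 0.20 (SE 0.0529, 95% confidence interval 0.082 to 0.33, adjusted p = 0.0170), and the fold change of 1.152 only just passed the 15% required. It fell short without WT 1 (0.17, adjusted p = 0.0741), WT 2 (0.18, adjusted p = 0.0499), TAZG197V 2 (0.18, adjusted p = 0.0719) or TAZG197V 3 (0.20, adjusted p = 0.0430, short of the fold required), and in DESeq2 (0.19, adjusted p = 0.0605). The direction was the same in all 17 alternative fits, with values from 0.17 to 0.26.

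HRI is also a kinase of red cell precursors, so red cell transcripts were read beside it. In TAZG197V, all 6 red cell markers met the call for a lower level and none was at 0 in any library, with sums as given above and WT 4 far from the rest. Without WT 4, 5 of the 6 still met it and their median log2 fold change moved from -3.49 to -0.90, while 0 met it without TAZG197V 1 or TAZG197V 3 and 1 without WT 1 or TAZG197V 2. Without both number 4 libraries 0 met it (median -0.60), and with all 8 libraries 0 met it with 1 surrogate variable, with lane or with the replicate block in place of surrogate variables. Eif2ak1 in WT 4 was 38.6 CPM, the highest WT value. Without WT 4 the log2 fold change of Eif2ak1 was 0.24 (adjusted p = 0.0143), and without both number 4 libraries it was 0.26 (adjusted p = 0.0108, with 1 surrogate variable in that fit). Of the exon bases of Eif2ak1 (chr5:143817788-143904251), 11.6% are shared with Aimp2 and Ankrd61, and the part of those genes in its counts was not tested.

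Eif2ak2, which encodes PKR, was not called, and 1 library decided this. It stood at 16.7, 16.3, 17.2 and 16.7 CPM in WT 1 to 4 and at 19.1, 21.7, 19.5 and 14.85 CPM in TAZG197V 1 to 4. TAZG197V 1 to 3 were above every WT library and TAZG197V 4 was below every WT library. The log2 fold change was 0.14 (95% confidence interval -0.035 to 0.32, adjusted p = 0.180). Without TAZG197V 4 it was 0.27 and called (adjusted p = 0.0316), and the same value was found without both number 4 libraries (adjusted p = 0.0310). Eif2ak2 is itself an interferon-stimulated gene. Of 14 other such genes, 3 were called higher, against 18.5% of all genes tested. They were Ifit3 (0.70), Oas1a (0.56) and Usp18 (0.62), with a median of 0.23 over the list. The count called higher was 0 without TAZG197V 2 and 1 without WT 1, while 2 were called higher and 2 lower without WT 2. The summed level of the 14 genes was 140 to 358 CPM in WT and 136 to 216 CPM in TAZG197V, lowest in TAZG197V 4, where Eif2ak2 was also lowest, and highest in WT 4, where Rsad2 alone gave 207.7 CPM. Their part in the Eif2ak2 values was not tested.

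**Figure D3:**
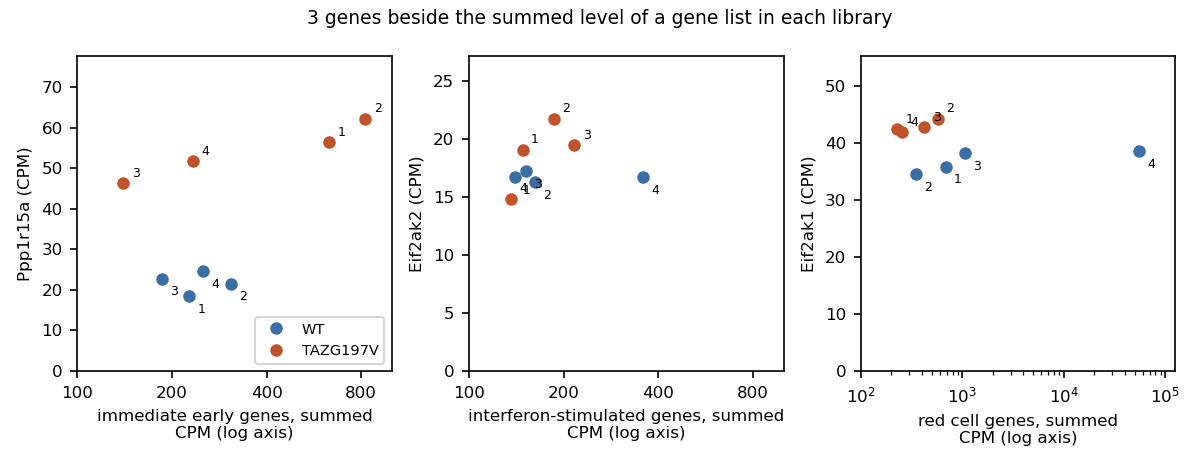
Level of Ppp1r15a, Eif2ak2 and Eif2ak1 (y axes, CPM, from 0) against the summed CPM of immediate early, interferon-stimulated and red cell genes (x axes, log scale) in each of the 8 libraries, with mouse numbers beside the points. Ppp1r15a is above 46 CPM in every TAZG197V library at sums from 140 to 824 CPM, Eif2ak2 is lowest in TAZG197V 4, and WT 4 stands apart on the red cell axis.

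Eif2ak3, which encodes PERK, did not differ beyond the spread between mice. It was counted at 9.71, 11.3, 11.4 and 12.0 CPM in WT 1 to 4 and 11.4, 12.7, 12.2 and 11.4 CPM in TAZG197V 1 to 4. The groups overlapped, and the log2 fold change was 0.098 (95% confidence interval -0.12 to 0.31, adjusted p = 0.437), from 0.032 without WT 1 to 0.15 without WT 4. Eif2ak4, which encodes GCN2, stood at 11.0, 10.8, 11.7 and 11.2 CPM in WT 1 to 4 and 10.5, 10.7, 10.4 and 10.5 CPM in TAZG197V 1 to 4. Its groups did not overlap, with every mutant value lower, yet the gap was small and the fit did not call it (log2 fold change -0.098, 95% confidence interval -0.27 to 0.070, adjusted p = 0.316). Neither gene was called in any of the 17 alternative fits. For both genes the intervals leave room for a difference larger than the one called for Eif2ak1.

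Genes whose proteins modulate the kinases were read as a list of 8, of which 1 was called higher, 2 lower and 5 not at all. Over all genes tested, 33.5% were called. Tarbp2, a double-stranded RNA-binding inhibitor of PKR, was higher (0.26, adjusted p = 0.0406). Dnajc3, an inhibitor of PKR and PERK in the endoplasmic reticulum, fell by 0.29 on the log2 scale (adjusted p = 0.00838). Hspa5, the chaperone BiP that holds PERK inactive, fell by 0.25 (adjusted p = 0.0490) with overlapping groups, and ranged from -0.35 to -0.074 over the alternative fits, the latter without both number 4 libraries (adjusted p = 0.489). Dnajc3 was called in 17 of 17 alternative fits, against 5 for Hspa5 and 6 for Tarbp2. The 5 genes not called were Gcn1 and Impact, an activator and an inhibitor of GCN2, at -0.0085 and 0.066, Prkra, an activator of PKR, at 0.18, Nck1, an adaptor protein, at -0.19, and Map3k20, a kinase that senses stalled ribosomes, at -0.15.

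Per exon length, the 4 kinase transcripts kept their order in every library. Eif2ak1 made up 49.5 ± 0.791% of the summed kinase level in WT hearts and 51.8 ± 1.85% in the mutant hearts (mean and SD of 4), with overlapping groups (exact permutation p = 0.0571, adjusted p = 0.08). Eif2ak2 made up 25.0 ± 0.718% and 25.0 ± 2.56%, and Eif2ak3 14.0 ± 0.973% and 13.5 ± 0.394% (exact permutation p = 1 and 0.4). Eif2ak4 had the smallest share, 11.5 ± 0.256% in WT and 9.66 ± 0.508% in TAZG197V, with no overlap (exact permutation p = 0.0286, adjusted p = 0.05). The share of a gene can fall because the others rise, and the CPM of Eif2ak4 itself was not called.

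**Figure D4:**
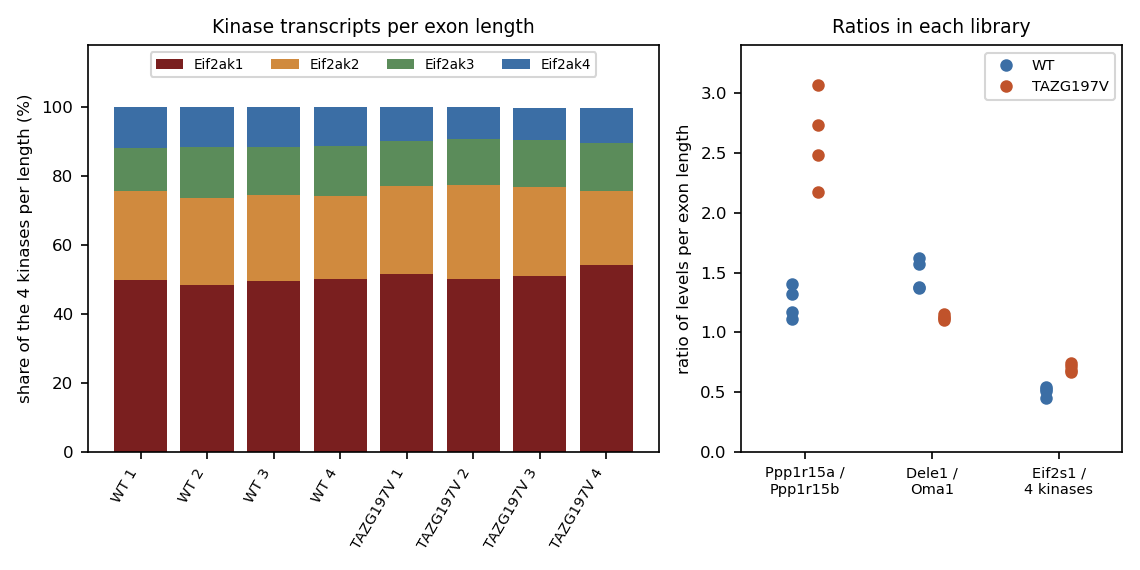
Left, share of each kinase in the summed level of the 4 kinases per exon length (y axis, %) in each library. Right, ratios of levels per exon length (y axis, no unit) in WT (blue) and TAZG197V (orange) libraries, where the Ppp1r15a to Ppp1r15b ratio is 1.11 to 1.41 in WT and 2.17 to 3.07 in TAZG197V.

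Across the 9 genes, the level per exon length, scaled to one total in every library, was highest for Dele1 in WT (53.3 ± 4.29), followed by Oma1 (36.0 ± 3.90) and Ppp1r15a (17.0 ± 1.94). Eif2s1 (15.2 ± 1.44), Eif2ak1 (14.9 ± 0.444) and Ppp1r15b (13.7 ± 2.02) came next, and from Ppp1r15a to Ppp1r15b each gene differed from its neighbour by less than the sum of their SDs. Eif2ak2 (7.51 ± 0.401), Eif2ak3 (4.22 ± 0.441) and Eif2ak4 (3.44 ± 0.175) were lowest. In TAZG197V, Ppp1r15a was first (45.6 ± 5.90), ahead of Dele1 (36.8 ± 1.21), Oma1 (32.6 ± 0.611) and Eif2s1 (25.4 ± 2.46). The other 5 genes kept their order. This scale takes another total than CPM, so the level of a single gene on it was not compared between genotypes, and only ratios and shares within a library were. The length used was that of all annotated exons of a gene merged, 7381 bases for Dele1 and 2144 bases for Oma1. Which isoforms were present was not measured, so the order of the genes and the size of ratios and shares depend on this length.

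Transcripts that are known to follow eIF2alpha phosphorylation were all higher in TAZG197V hearts. All 10 of the list were called, here and in each of the 17 alternative fits, with a median log2 fold change of 2.84. They were led by Asns, asparagine synthetase (6.11), Trib3, a pseudokinase that binds ATF4 (5.31), Chac1, which degrades glutathione (3.91), and Atf5, a transcription factor (3.53). The summed level of the 10 genes was 285 to 327 CPM in WT and 1910 to 2239 CPM in TAZG197V. Phosphorylation of eIF2alpha, cleavage of DELE1 and kinase activity were not measured in these data.

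For each called member, the 2 tested genes with the most similar profile over the 8 libraries were found by the mean absolute difference of centred log2 CPM. For Dele1 these were Mtfp1, a mitochondrial fission protein (0.0256), and Hadh, an enzyme of fatty acid oxidation (0.0332), against a range of Dele1 itself of 0.850. Eif2s1 was nearest to Eif3i, a subunit of another initiation factor (0.0242), and Psmc2, a proteasome subunit (0.0244). Ppp1r15a was nearest to Gls2 (0.104) and Prmt3 (0.106), at larger distances but with a larger range of its own, 1.75. The nearest genes were Guf1 (0.0303) and Fermt2 (0.0312) for Oma1, 2310030G06Rik (0.0216) and Lias (0.0278) for Eif2ak1, and Gstcd (0.0285) and Trove2 (0.0289) for Ppp1r15b. The ranges were 0.393 for Oma1, 0.356 for Eif2ak1 and 0.437 for Ppp1r15b. Of the neighbours, Gls2, Guf1, 2310030G06Rik and Gstcd were not called. These distances describe 8 libraries only, and most of each profile is the difference between genotypes.

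**Figure D5:**
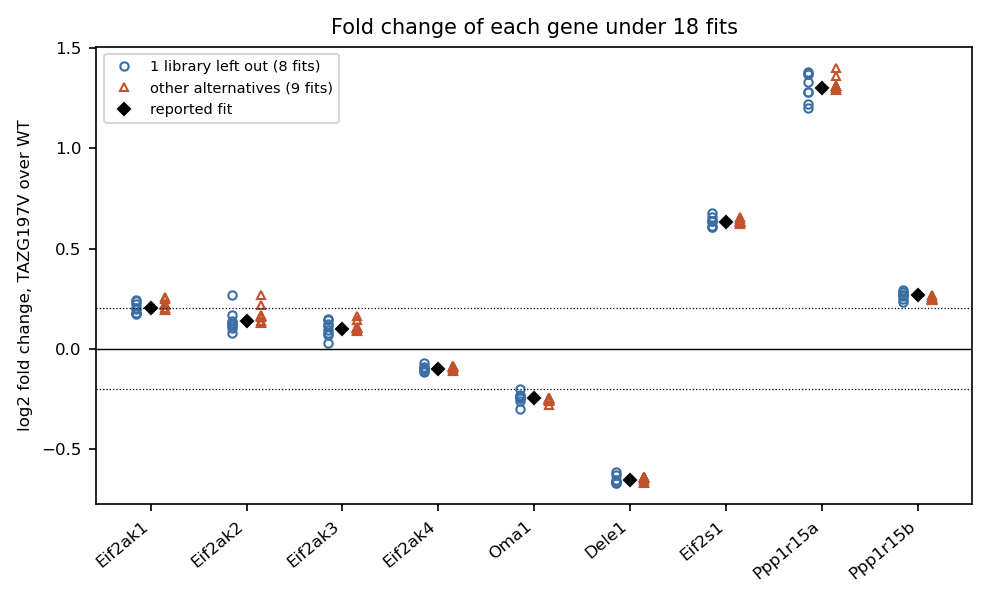
Log2 fold change of TAZG197V over WT (y axis) of each gene in the reported fit (black), in 8 fits that each leave out 1 library (blue circles) and in 9 other alternatives (orange triangles), with dotted lines at a change of 15%. Ppp1r15a, Eif2s1 and Dele1 stay far from the lines, while Eif2ak1 and Oma1 lie close to them.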

How the data were processed

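RNA from 4 WT and 4 TAZG197V hearts was sequenced as single-end reads. According to the labels, the authors demultiplexed with bcl2fastq 2.20.0, checked reads with FastQC 0.11.9, aligned them to mm10 with STAR 2.7.3a and counted reads over exons with featureCounts (Subread 2.0.0). The deposited files hold raw counts, whole numbers for each Ensembl gene. The annotation release, strand setting and treatment of reads with several alignments were not given in the sources used here, so overlapping genes and near-identical copies are uncertain. Spike-in rows (92) held 0 counts and were left out.

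The fit used edgeR 4.0.16 in R 4.3.3 (filterByExpr, TMM, quasi-likelihood F-test, two-sided) with 2 surrogate variables from svaseq (sva 3.50.0, seed 1) as covariates, and Benjamini-Hochberg adjustment. DESeq2 1.42.0 was an alternative. The procedure was run on simulated counts, in which the planted changes were larger than those found for Eif2ak1, Oma1 and Ppp1r15b. Symbols, positions and exon lengths came from GENCODE M21 on GRCm38, the assembly of mm10, which gave a symbol for 55144 of 55471 gene IDs. Of 2 IDs named Ddit3, the one with more counts was used. Intervals are 95% confidence intervals of the fit. Replicates are separate mice per the study's methods.

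The members and gene lists were chosen with earlier results of these data known, and the exact permutation tests were added after the values were seen. Named were all members, Taz, up to 4 called genes per pathway list with the largest change, the genes behind the pathway counts of 5 or fewer, list genes whose values stand beside a member, and the 2 most similar genes of each called member. Marker genes behind small counts were named after their values were seen. Protein sequences were not used here.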

Additional observations from a re-analysis of the deposited data

How the results depend on the processing

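Ppp1r15a, Eif2s1, Dele1 and Ppp1r15b were called in the same direction in all 17 alternative fits, and Eif2ak3 and Eif2ak4 in none. Eif2ak1 was not called with DESeq2 (0.19) or with DESeq2 size factors in edgeR (0.19), and was 0.17 to 0.24 with single libraries left out. With single libraries left out Oma1 was -0.30 to -0.20 and Eif2ak2 0.080 to 0.27, and without both number 4 libraries Eif2ak2 was 0.27 and called. The cause of these changes was not tested, and the fits that left out a library also had fewer mice. A fold change of 1.5 in place of the 15% left 1843 genes and 3 members called, and an adjusted p under 0.01 left 3174 genes and 3 members, in each case Ppp1r15a, Eif2s1 and Dele1. No alternative reversed a member.

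Mice with the same number were not paired by the labels, and their deviations from the group means correlated at 0.277, 0.0436, 0.28 and 0.416 for numbers 1 to 4, against -0.464 to 0.317 for mice of different numbers. Numbers 1 and 2 of both genotypes were sequenced on lane 7 and numbers 3 and 4 on lane 8. The exact permutation tests did not keep libraries within their lane. With the replicate block in place of the surrogate variables 4272 genes and 6 members were called, and no call of a member changed. Of the members, Eif2ak3 and Eif2ak4 had the lowest depth, at mean counts of 336.7 and 317.5.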
